A study of Mus musculus with 7 samples.

Results

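The contractile apparatus of uterine smooth muscle was described through 35 genes among the 23282 rows of each expression table. The members were set by gene symbol: 9 genes of the actin thin filament, 5 of the myosin thick filament and its light chain, 8 of the cytoskeleton and its attachments, 2 transcription regulators, 6 genes of excitation and calcium handling, 3 small heat shock or other muscle proteins, and the labour-associated genes Oxtr and Gja1. All 35 symbols were found, and all 35 passed the filters on low values in each comparison. The libraries came from whole uterine tissue of C57BL/6 female mice 6 weeks old. In the CXCL12 groups, 100 ng of recombinant human CXCL12, a chemokine that binds CXCR4 and CXCR7, was infused in 30 µl of saline into one uterine horn, and tissue was taken at Day 3 (2 libraries) or Day 8 (3 libraries). The opposite horn received saline, and 2 saline-treated libraries served as controls for both days. No day is labelled for the saline libraries, and no stage of the oestrous cycle or animal is labelled for any library, so P-values measure only the spread between these libraries.

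Smooth muscle contracts when calcium activates myosin light chain kinase, which phosphorylates the regulatory light chain and lets myosin pull on actin. Caldesmon and calponin restrain this step on the thin filament, and a phosphatase removes the phosphate again. In the uterus the muscle lies in 2 outer layers, the myometrium, beneath the endometrium, and vessels carry smooth muscle of their own. Serum response factor with its partner myocardin drives many of these genes through a promoter sequence called the CArG box. QuantSeq reads each transcript near its 3′ end, so its counts, scaled to the library total (CPM), were compared between genes without division by length.

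CArG boxes were looked for in the promoters because many smooth muscle genes share this route of control. The box was taken as CC, then 6 bases that are each A or T, then GG, which reads as the same pattern on both strands. Windows from 250 bases before to 50 bases after the transcription start were taken from RefSeq (GRCm38.p6), which matched 31 of the 35 members; Actg2, Tagln, Myh11 and Myocd have no entry. An exact box lay in the windows of 4 of the 31 members (12.9%), against 1.81% of 27025 symbols with a window. With 1 other base allowed among the central 6, a box lay in 8 members (25.8%), against 11.3% of all symbols. The 4 exact matches (Myl9, Vcl, Srf and Fhl1) and Acta2, the most abundant actin among the members, are shown 5′ to 3′ on the gene's strand. Capitals mark boxes, both exact ones and those with 1 other central base.
Myl9, chr2:156775283-156775394, plus strand, boxes starting 161 and 99 bases before the start: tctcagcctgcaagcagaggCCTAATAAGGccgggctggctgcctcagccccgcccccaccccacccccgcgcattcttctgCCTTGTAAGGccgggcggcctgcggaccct
Vcl, chr14:20929151-20929200, plus strand, box starting 227 bases before the start: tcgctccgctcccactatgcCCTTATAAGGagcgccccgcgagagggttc
Srf, chr17:46556195-46556264, minus strand, boxes starting 82 and 62 bases before the start: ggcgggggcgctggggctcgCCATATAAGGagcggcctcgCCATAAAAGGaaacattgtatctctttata
Fhl1, chrX:56779561-56779610, plus strand, box starting 102 bases before the start: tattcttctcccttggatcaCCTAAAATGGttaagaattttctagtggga
Acta2, chr19:34255378-34255477, minus strand, boxes with 1 other base starting 84 and 34 bases before the start: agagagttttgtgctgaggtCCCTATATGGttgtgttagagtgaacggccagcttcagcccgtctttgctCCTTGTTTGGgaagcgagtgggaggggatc
The match is one of letters, and binding was not measured.

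The count tables summed to between 6908790 and 12308982 counts per library. Day 3 replicate 1 was deposited as log2 values, and its levels were put on the CPM scale after that transformation was undone. CPM values below were scaled by trimmed mean of M-values (TMM) factors. A pair of libraries stood apart in these genes. Day 8 replicate 1, whose table carries Day 3 in its name but which the label places at Day 8, was the lowest of the 3 Day 8 libraries in 33 of 35 members, against 40.4% of 14204 genes with a mean of at least 1 CPM. The mean of Day 8 replicates 2 and 3 was a median of 2.15-fold above it, while replicates 2 and 3 lay within 1.5-fold of each other in 32 members. The saline-treated libraries lay within 1.5-fold in only 13 members and were more than 2-fold apart in another 13, with saline replicate 1 higher in all of these but Casq2 and Gja1. The Day 3 libraries lay within 1.5-fold in 33 members. Summed over the 35 members, the level was 9056 and 5581 CPM in the saline-treated libraries, 9334 and 10200 CPM at Day 3, and 6055, 12432 and 11856 CPM at Day 8. The group sums of saline and Day 8 overlapped, since Day 8 replicate 1 lay between the saline-treated libraries.

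**Figure D1:**
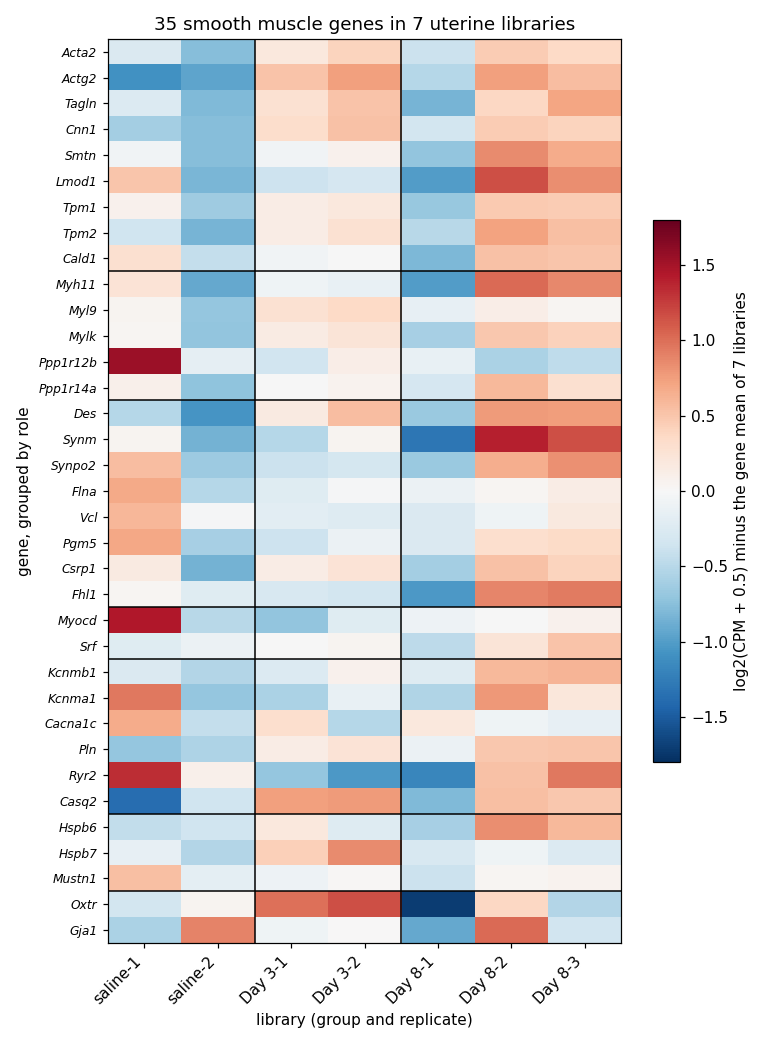
Level of each of the 35 genes (rows, grouped by role between black lines) in the 7 libraries (columns, group and replicate number), as log2(CPM + 0.5) minus the gene's mean over the libraries. Most rows are blue in saline-2 and Day 8-1 and red in Day 8-2 and Day 8-3, and 9 genes are highest in saline-1, where 25.4% of all genes also have their highest level.

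At Day 8, 4 of 35 members stood above saline in every library (11.4%, against 9.06% of all genes) and 0 stood below (10.3% of all genes did). They were the enteric smooth muscle actin Actg2, the calponin gene Cnn1, the sarcoplasmic calcium pump regulator Pln and the potassium channel subunit Kcnmb1. The same 4 genes were above both saline-treated libraries in all 5 CXCL12 libraries, with TMM-scaled CPM and with quantile-normalized values (11.4% of members, against 5.21% and 5.31% of all genes on these scales). No member lay below saline in all 5, as 6.0% and 5.56% of all genes did. By edgeR's quasi-likelihood test of Day 8 against saline, 3 members passed a 2-fold change at an unadjusted P of 0.05 (2.94% of the 15388 genes tested passed). The actin gene Actg2 and the desmin gene Des were higher (1.53% of all genes), and the phosphatase subunit gene Ppp1r12b was lower (1.42%). At the P of 0.05 alone, 5 members passed (4.26% of all genes). The median log2 fold change was 0.45 over the members and -0.01 over all genes, and 24 members had a positive value (49.3% of all genes did). With Benjamini-Hochberg adjustment, edgeR gave no gene an adjusted p below 0.956. The count of 3 rested on single libraries. Without Day 8 replicate 1 it was 13, all higher, and 1027 of 15359 genes were called (528 higher). It was 1 without Day 8 replicate 2 or 3, where 476 of 15194 and 227 of 15271 genes were called. Leaving out a saline library left 1 saline-treated library. The median log2 fold change of the members was then 0.82 without saline replicate 1 and 0.14 without saline replicate 2.

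At Day 3, 3 members passed the same thresholds by limma (4.66% of 15800 genes passed), all of them higher (1.96%): Actg2, the calcium-binding protein gene Casq2 and the small heat shock protein gene Hspb7. At the P of 0.05 alone, 5 members passed (7.35% of all genes). The median log2 fold change was 0.04 over the members and 0.01 over all genes on the quantile-normalized scale, and 19 members had a positive value (50.7% of all genes did). It was 0.29 when edgeR was run on counts with those of Day 3 replicate 1 estimated. Both Day 3 libraries were above both saline-treated libraries in 16 members with TMM-scaled CPM (23.6% of all genes were) and in 11 with quantile-normalized values (23.9%). The Acta2, Tpm1, Mylk, Myl9 and Srf genes separated on the TMM scale alone. Ryr2, Vcl and Fhl1 were below saline in both Day 3 libraries on both scales (24.6% and 22.2% of all genes were). The smallest adjusted p of a member was 0.627 by limma with Benjamini-Hochberg adjustment. Day 3 and Day 8 were set against the same saline-treated libraries, so their values stand side by side and are not independent. Between the days, limma called 1 member, Oxtr, lower at Day 8 (4.77% of 15800 genes passed, and 2.44% were lower), and 2 members had an unadjusted P below 0.05 by limma (7.09% of all genes). The median log2 fold change of the members between the days was 0.16, and that of all genes 0.0. All Day 8 libraries lay below both Day 3 libraries in 4 members on the TMM scale (15.9% of all genes): Myl9, Casq2, Hspb7 and Oxtr.

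**Figure D2:**
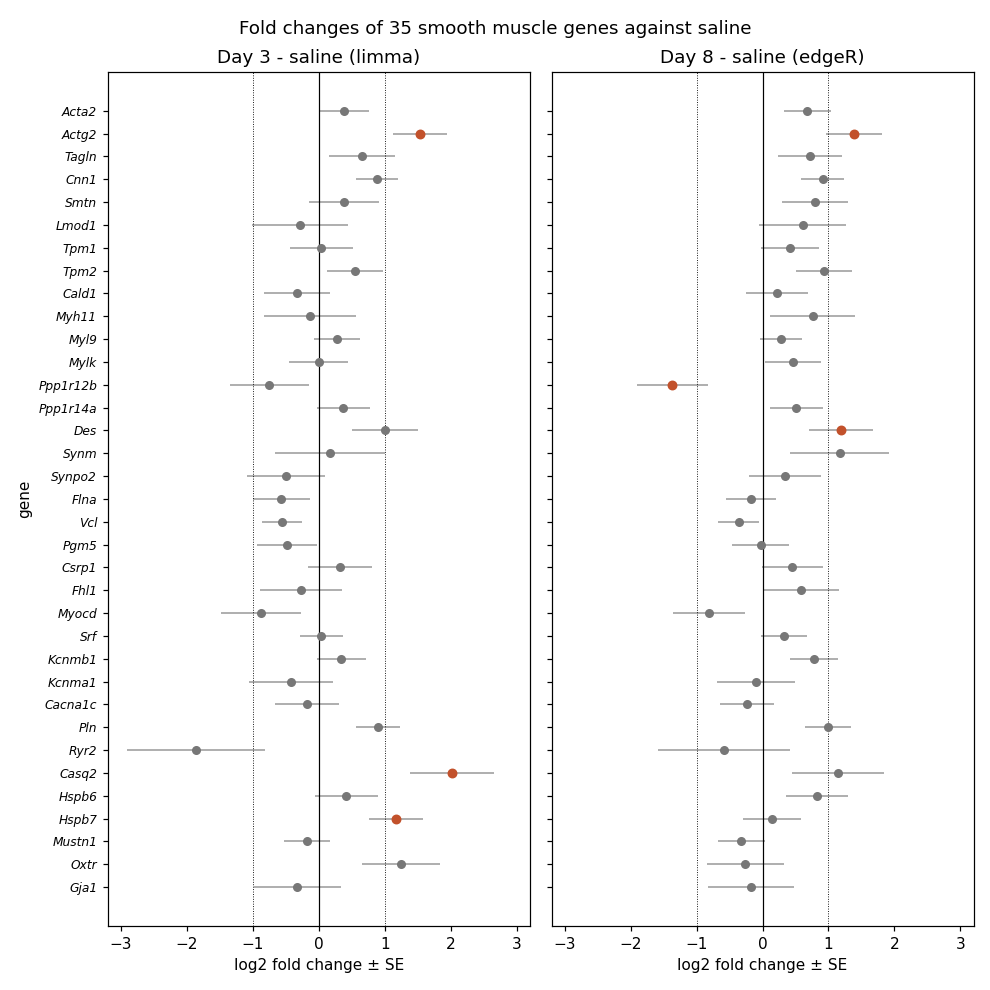
The log2 fold change with its standard error for each of the 35 genes, at Day 3 by limma on quantile-normalized values (left) and at Day 8 by edgeR on counts (right), both against the same 2 saline-treated libraries. Dotted lines mark a 2-fold change, and orange points passed it at an unadjusted P of 0.05: Actg2, Casq2 and Hspb7 at Day 3, and Actg2, Ppp1r12b and Des at Day 8.

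By edgeR the thin filament genes all had a positive value at Day 8, 9 of 9 (median log2 fold change 0.72). By limma 7 of 9 did at Day 3 (median 0.38), so these medians come from unlike tests. By limma on quantile-normalized values at Day 8, Cald1 was at -0.14 and the other thin filament genes stayed positive. Actg2 encodes the gamma actin of visceral smooth muscle. It was at 54.0 and 59.6 CPM in the saline-treated libraries, at 165 and 194 CPM at Day 3, and at 80.8, 194 and 170 CPM at Day 8. Neither CXCL12 group overlapped saline, although they overlapped each other, and Day 8 replicate 1 lay between saline and the other CXCL12 libraries. Its log2 fold change was 1.54 ± 0.41 (SE) at Day 3 by limma (unadjusted P 0.00589, adjusted p 0.627). At Day 8 it was 1.39 ± 0.42 by edgeR (unadjusted P 0.0129, adjusted p 0.956) and 1.32 without saline replicate 1 (P 0.0689). Actg2 also differed in proportion to the vascular and general smooth muscle actin Acta2: the ratio of Actg2 to Acta2 was 4.32% and 6.79% in saline, 9.71% and 9.89% at Day 3, and 7.05%, 9.44% and 8.93% at Day 8. No CXCL12 library fell within the saline range, although Day 8 replicate 1 lay close to its upper end. Acta2 itself was at 1249 and 877 CPM in saline, 1697 and 1961 CPM at Day 3, and 1145, 2054 and 1908 CPM at Day 8, with a log2 fold change at Day 8 of 0.68 ± 0.36 by edgeR (unadjusted P 0.101). On the quantile-normalized scale that value was 0.11.

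Cnn1, whose product calponin binds actin and slows myosin, was at 189 and 169 CPM in saline, 359 and 416 CPM at Day 3, and 230, 396 and 380 CPM at Day 8. Both groups lay wholly above saline. The difference was 0.91 ± 0.33 at Day 8 by edgeR (unadjusted P 0.0294) and 0.88 ± 0.32 at Day 3 by limma (unadjusted P 0.0272), under the fold change of 2. Tagln, which encodes the actin-bundling protein transgelin, was at 284 and 193 CPM in saline, 408 and 483 CPM at Day 3, and 188, 438 and 553 CPM at Day 8. Its Day 8 range enclosed the saline range because replicate 1 was the lowest of all 7 libraries. The tropomyosins cover the myosin-binding sites along actin. Tpm2 was at 250 and 180 CPM in saline, 353 and 387 CPM at Day 3, and 227, 532 and 468 CPM at Day 8 (0.93 ± 0.42 by edgeR, unadjusted P 0.0629). Tpm1, the most abundant thin filament gene after Acta2, was at 893 and 540 CPM in saline and between 524 and 1176 CPM at Day 8, with a value of 0.41 ± 0.44. Caldesmon (Cald1) was the member of this group with the least difference at Day 8, 0.22 ± 0.47. Leiomodin 1 (Lmod1), which nucleates actin filaments, was at 132 and 52.3 CPM in saline, 71.8 and 75.2 CPM at Day 3, and 46.1, 208 and 167 CPM at Day 8. It thus spanned a 4.51-fold range across the libraries, most of it within groups. Smoothelin (Smtn), a marker of contractile smooth muscle, was at 59.7 and 36.5 CPM in saline and at 38.0, 114 and 99.5 CPM at Day 8 (0.80 ± 0.50).

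**Figure D3:**
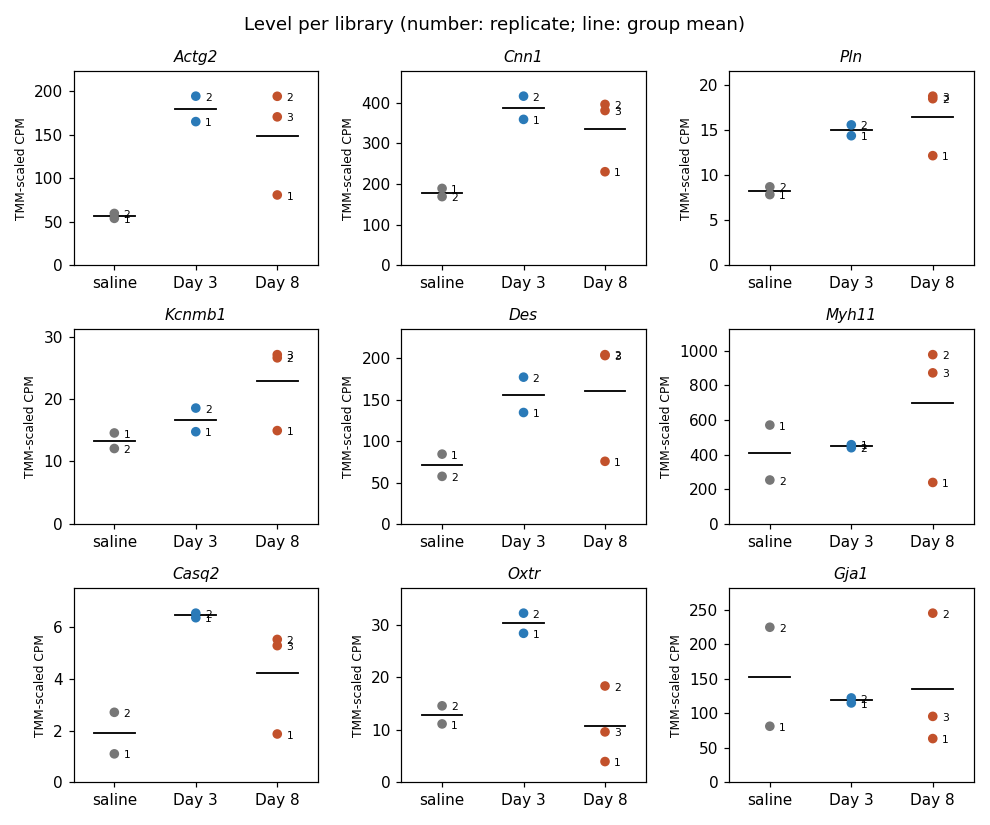
TMM-scaled CPM of 9 genes in each library (points, with the replicate number beside them) and the group mean (line), on axes that start at 0. Actg2, Cnn1, Pln and Kcnmb1 do not overlap saline in any CXCL12 library, while Day 8 replicate 1 falls inside the saline range in Des and Casq2 and below it in Myh11, Oxtr and Gja1.

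Of the thick filament and light chain genes, the phosphatase subunit Ppp1r12b alone passed at Day 8, and it was the lone member of the 5 with a negative value. Myh11, the smooth muscle myosin heavy chain, was at 571 and 254 CPM in saline, 458 and 440 CPM at Day 3, and 239, 978 and 873 CPM at Day 8. Its Day 8 libraries lay on either side of the saline pair. The fold change was 0.76 ± 0.64 on the log2 scale by edgeR (unadjusted P 0.271), and 1.17 without Day 8 replicate 1 (P 0.0324). Its partner Myl9, the regulatory light chain, did not follow it: Myl9 was at 598 and 356 CPM in saline, 697 and 736 CPM at Day 3, and 522, 627 and 589 CPM at Day 8. The ratio of Myh11 to Myl9 was 95.6% and 71.2% in saline, 65.7% and 59.8% at Day 3, and 45.9%, 156% and 148% at Day 8. The ratio therefore ran from its lowest to its highest value within the Day 8 group. Mylk, the kinase that starts contraction, was the most abundant of the 35 genes, with a mean of 1911 CPM over the libraries. It was at 1879 and 1123 CPM in saline, 2020 and 2149 CPM at Day 3, and 1205, 2554 and 2446 CPM at Day 8. Its Day 8 value was 0.46 ± 0.42 by edgeR but -0.30 ± 0.41 by limma on quantile-normalized values, so no direction was given.

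Myosin phosphatase opposes the kinase. Ppp1r12b, which encodes a regulatory subunit of it, was at 23.4 and 6.86 CPM in saline, 5.95 and 8.39 CPM at Day 3, and 7.0, 5.02 and 5.48 CPM at Day 8. Saline replicate 1 stood far above the other 6 libraries, which lay between 5.02 and 8.39 CPM. The fold change at Day 8 was -1.37 ± 0.54 on the log2 scale by edgeR (unadjusted P 0.0376) and -0.23 without saline replicate 1 (P 0.634). Ppp1r14a, whose product CPI-17 inhibits the phosphatase, was at 26.7 and 14.9 CPM in saline, 24.7 and 26.1 CPM at Day 3, and 20.1, 37.5 and 30.6 CPM at Day 8 (0.51 ± 0.40). It overlapped saline at both days.

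Among cytoskeletal genes, the muscle intermediate filament gene Des differed most from saline. It was at 84.3 and 57.4 CPM in saline, 135 and 177 CPM at Day 3, and 75.6, 204 and 203 CPM at Day 8. Both Day 3 libraries and Day 8 replicates 2 and 3 lay above saline, and Day 8 replicate 1 lay between the saline libraries. Its value was 1.19 ± 0.49 at Day 8 by edgeR (unadjusted P 0.0439, adjusted p 0.956) and 1.01 ± 0.50 at Day 3 by limma (unadjusted P 0.0795). The Day 8 value was 0.94 without saline replicate 2 (P 0.198). Of the 50-base words in the last 500 bases of the Des transcript, 38.4% also occur in Gm15179, so part of its reads could be shared.

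Synemin (Synm), a partner of desmin, was spread widely inside the Day 8 group, at 17.0, 114 and 96.2 CPM, against 44.2 and 23.5 CPM in saline and 29.9 and 44.2 CPM at Day 3. Its Day 8 difference was 1.17 ± 0.75 by edgeR (unadjusted P 0.162) and 1.64 without Day 8 replicate 1 (P 0.00539). Fhl1, a LIM-domain protein gene with an exact CArG box (above), was at 64.6 and 53.9 CPM in saline, 51.5 and 49.9 CPM at Day 3, and 30.3, 116 and 121 CPM at Day 8. Against Day 3, Fhl1 was at 0.63 ± 0.56 with all libraries and at 1.29 ± 0.20 without Day 8 replicate 1 (adjusted p 0.0569 by limma with Benjamini-Hochberg adjustment). It was the single member of 35 past an adjusted p of 0.1 in that reduced fit, where 454 of 15675 genes passed. Synaptopodin 2 (Synpo2) was at 240 and 103 CPM in saline, 125 and 131 CPM at Day 3, and 102, 258 and 289 CPM at Day 8.

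The attachment genes Flna, Vcl and Pgm5 had another order, with saline replicate 1 the highest library. Filamin A (Flna), which crosslinks actin, was at 837 and 366 CPM in saline, between 447 and 514 CPM at Day 3, and between 486 and 573 CPM at Day 8. Vinculin (Vcl), which links actin to the membrane, was at 100.7 and 65.5 CPM in saline, 58.2 and 56.8 CPM at Day 3, and 55.2, 63.0 and 75.5 CPM at Day 8. Its Day 3 value was -0.56 ± 0.30 by limma (unadjusted P 0.101). All 50-base words at the end of the Vcl transcript also occur in Ap3m1, so its reads could belong to either gene. Pgm5, a vinculin-associated protein of muscle, was at 233 and 94.1 CPM in saline and between 110 and 183 CPM in the CXCL12 libraries. Without saline replicate 2, Flna and Pgm5 were at -1.34 and -1.22 (log2) at Day 3 by limma, and without saline replicate 1 both values were positive. Csrp1, another LIM protein gene, was at 252 and 125 CPM in saline and between 148 and 323 CPM in the CXCL12 libraries.

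The regulators did not move as a pair. Srf, with 2 exact CArG boxes in its own promoter window, was among the steadiest members, with a 1.99-fold range over the 7 libraries. It was at 112 and 121 CPM in saline, 130 and 135 CPM at Day 3, and 93.8, 153 and 187 CPM at Day 8 (0.32 ± 0.35 by edgeR). Myocd, its muscle coactivator, was at 27.6 and 6.86 CPM in saline, 5.85 and 8.39 CPM at Day 3, and 9.22, 9.79 and 10.4 CPM at Day 8. As with Ppp1r12b, saline replicate 1 stood apart from the rest. The Day 8 value of Myocd was -0.81 ± 0.55 by edgeR, 0.52 without saline replicate 1 and -1.49 without saline replicate 2, so its sign depended on that library. Myocd was the 1 member with all Day 8 libraries above both Day 3 libraries (16.0% of all genes were).

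Among excitation and calcium genes, Pln and Kcnmb1 were above saline in every CXCL12 library. Pln encodes phospholamban, which restrains calcium uptake into the sarcoplasmic reticulum. It was at 7.83 and 8.69 CPM in saline, 14.3 and 15.5 CPM at Day 3, and 12.1, 18.4 and 18.7 CPM at Day 8. The difference was 0.99 ± 0.35 at Day 8 by edgeR (unadjusted P 0.0247) and 0.90 ± 0.33 at Day 3 by limma (unadjusted P 0.0253), just under the fold change of 2. Of the 50-base words at its 3′ end, 21.1% also occur in Cep85l. Kcnmb1, the beta subunit that tunes the large-conductance potassium channel to calcium, was at 14.6 and 12.1 CPM in saline, 14.8 and 18.5 CPM at Day 3, and 14.9, 26.6 and 27.1 CPM at Day 8. Its lowest CXCL12 library exceeded the higher saline library by little, and its values were 0.78 ± 0.37 at Day 8 and 0.34 ± 0.37 at Day 3.

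The pore-forming subunit of the same channel, Kcnma1, was at 22.5 and 6.86 CPM in saline, 7.49 and 10.4 CPM at Day 3, and 7.70, 20 and 13.1 CPM at Day 8. The ratio of Kcnma1 to Kcnmb1 was 155% in saline replicate 1 and between 48.5% and 75.2% in the other 6 libraries. Cacna1c, the pore of the L-type calcium channel, was at 19.1 and 8.69 CPM in saline and between 8.19 and 14.8 CPM in the CXCL12 libraries. Casq2, which stores calcium in the sarcoplasmic reticulum, was at 1.10 and 2.70 CPM in saline, 6.35 and 6.53 CPM at Day 3, and 1.87, 5.51 and 5.27 CPM at Day 8. It was called at Day 3, where limma gave a value of 2.02 ± 0.64 (log2) (unadjusted P 0.0135, adjusted p 0.627), and Day 8 replicate 1 lay within the saline range. Without saline replicate 1 the Day 3 value was 1.39 (P 0.0793). The calcium release channel gene Ryr2 was the least abundant member, with 30 and 13 counts in the saline-treated libraries, 3 in Day 3 replicate 2, and 2, 23 and 26 at Day 8. Its difference of -1.86 ± 1.05 at Day 3 (unadjusted P 0.116 by limma) rested on counts at this floor of 3.

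Casq2 and Hspb7 are also genes of striated muscle, so skeletal and cardiac muscle markers were read beside them. Hspb7 was at 4.16 and 3.09 CPM in saline, 6.46 and 8.81 CPM at Day 3, and 3.73, 4.36 and 3.83 CPM at Day 8. The value was 1.17 ± 0.41 at Day 3 by limma (unadjusted P 0.0212) and 0.95 without Day 3 replicate 2 (P 0.143), and from Day 3 to Day 8 it was -0.98 ± 0.37 (unadjusted P 0.0301). The summed level of 11 skeletal muscle markers was 62.9 and 75.4 CPM in saline, 185 and 200 CPM at Day 3, and 197, 62.3 and 75.1 CPM at Day 8, nearly all from Tnni2 and Acta1. Of the 11, 6 had a mean of at least 1 CPM over the libraries. At Day 3, 4 of the 7 tested markers were called higher (1.96% of all genes were). Myh4 was at 0 in every library and Myh1 at or near 0. Day 8 replicate 1 shared the high marker sum with the Day 3 libraries but not their levels of Casq2 or Hspb7. The summed level of 6 cardiac muscle markers was 23.7 and 35.5 CPM in saline, 35.2 and 37.0 CPM at Day 3, and 25.2, 50.6 and 21.0 CPM at Day 8. At Day 3, 4 of them were tested, and 1 was called higher and 1 lower (1.96% and 2.7% of all genes). The part of striated muscle in these values was not tested. Hspb6 was at 11.5 and 12.2 CPM in saline, 18.0 and 13.4 CPM at Day 3, and 10.3, 28.6 and 23.9 CPM at Day 8 (0.82 ± 0.47 by edgeR). Mustn1 ranged from 13.1 to 25.3 CPM, highest in saline replicate 1.

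Of the labour-associated genes, Oxtr was called between the days and Gja1 in no comparison. Oxtr, the oxytocin receptor through which contractions are stimulated, was at 11.1 and 14.6 CPM in saline, 28.4 and 32.2 CPM at Day 3, and 3.97, 18.4 and 9.62 CPM at Day 8. Both Day 3 libraries lay above all other libraries, and the Day 8 libraries fell on both sides of saline. From Day 3 to Day 8 its log2 fold change was -1.74 ± 0.54 by limma (unadjusted P 0.012, adjusted p 0.695). Against saline it was 1.25 ± 0.59 at Day 3 by limma (unadjusted P 0.0676) and -0.26 ± 0.59 at Day 8 by edgeR (unadjusted P 0.666). The difference between the days was -1.65 without Day 3 replicate 2 (P 0.0636). If Day 8 replicate 1 was counted with Day 3, as its table name would have it, the difference was -0.28 (P 0.73). Gja1, the gap junction connexin 43 that couples muscle cells, was at 81.4 and 225 CPM in saline, 115 and 122 CPM at Day 3, and 63.5, 245 and 95.7 CPM at Day 8. It was the member whose saline-treated libraries differed most in the other direction, with replicate 2 higher. It did not separate any pair of groups, and endometrial stroma also expresses it.

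Other smooth muscle genes did not shift as a list. Of 83 further genes of smooth muscle receptors, channels, signalling and structure, 81 were tested at Day 8 against saline, where 1 was called higher (1.53% of all genes) and 0 lower (median log2 fold change -0.06). At Day 3, 82 were tested, 4 were called higher (1.96% of all genes) and 0 lower (median -0.22). Those called at Day 3 included the low-level genes Ldb3, at 1.57 ± 0.60 by limma, and the sarcoglycan Sgca. Sgca was at 0.122 and 0.0 CPM in saline, under the floor of 3 counts, and at 1.73 and 0.829 CPM at Day 3, so no fold is given. None passed an adjusted p of 0.1.

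Between the days, 3 further genes of 82 were called higher at Day 8 (2.33% of all genes) and 0 lower (median 0.18). The chloride channel Ano1, linked to pacemaking in smooth muscle, was at 37.2 and 35.8 CPM at Day 3 and 63.3, 82.1 and 92.5 CPM at Day 8, with no overlap (1.14 ± 0.26 by limma, unadjusted P 0.0023, adjusted p 0.679). In saline it was at 67.4 and 52.7 CPM. Rgs2, which shortens G-protein signalling by contractile agonists, was at 642 and 522 CPM in saline, 287 and 271 CPM at Day 3, and 263, 2437 and 2778 CPM at Day 8. Its Day 8 libraries therefore differed by more than any contractile member's did except Ryr2, with replicate 1 at the Day 3 level. The prostaglandin receptor gene Ptger3 had the same order at Day 8, with 6.07, 18.4 and 22.03 CPM against 5.54 and 4.66 CPM at Day 3 (1.32 ± 0.53).

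Markers of other uterine cells were read beside the contractile genes. The list medians of endothelium and stroma were also higher in Day 8 replicates 2 and 3 than in the other libraries. Single markers did not all follow their list. Among the 3 most abundant stromal markers, Dcn and Col3a1 had this order. Col1a1 was at 1995 and 2286 CPM in Day 8 replicates 2 and 3, below its 2596 and 2869 CPM at Day 3. Median levels relative to each gene's mean were 0.52 and 0.45 (log2) for the 35 members in Day 8 replicates 2 and 3 and -0.54 in Day 8 replicate 1. For 8 endothelial markers the same values were 0.55, 0.54 and -0.45. For 8 stromal markers they were 0.37, 0.65 and -0.26. The 8 pericyte and vascular smooth muscle markers had 0.19, 0.38 and -0.45 in these libraries, but their highest median, 0.53, was in saline replicate 1. Epithelial markers ran the other way in 1 library: the median of 10 markers was -0.76 in Day 8 replicate 2, 0.08 in replicate 3 and 0.37 in replicate 1. The summed level of the epithelial markers was 745 and 1139 CPM in saline, 1320 and 1267 CPM at Day 3, and 1333, 613 and 1132 CPM at Day 8. The summed endothelial level was 263 and 191 CPM in saline, 213 and 239 CPM at Day 3, and 187, 348 and 350 CPM at Day 8. Adipocyte markers differed most between libraries: their summed level was 807 and 2447 CPM in saline, 2896 and 303 CPM at Day 3, and 228, 356 and 244 CPM at Day 8. By edgeR 6 of 6 adipocyte markers were called lower at Day 8 against saline (1.42% of all genes were). Their median log2 fold change was -2.24, and none passed an adjusted p of 0.1. Of the 4 tested leukocyte markers, 1 was called lower at Day 8 (median -0.75, 1.42% of all genes called lower). At Day 3, 2 of them were called lower (median -1.24, 2.7% of all genes called lower). The median of 5 mesothelial markers was -1.56 in Day 8 replicate 1, 0.54 in replicate 2 and 1.23 in replicate 3, and 0 of them were called at Day 8 against saline. The part of tissue make-up in the contractile values was not tested, and in whole tissue fewer muscle cells and less RNA per muscle cell cannot be told apart. Of the 11 smooth muscle markers used to check the tissue, all were present at a mean of at least 1 CPM, with sums from 1821 to 4880 CPM. These 11 markers are themselves members, so they check the tissue label but are no separate list.

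**Figure D4:**
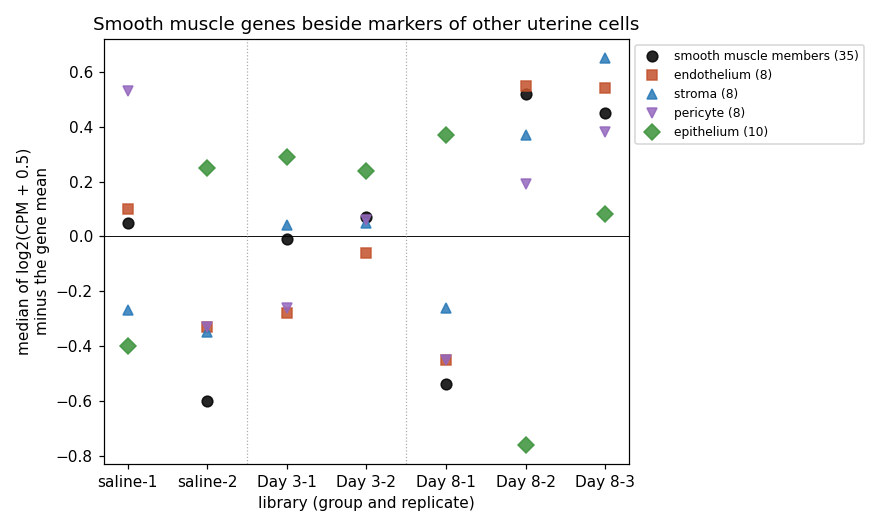
Median over each list of log2(CPM + 0.5) minus the gene mean, in the 7 libraries, for the 35 contractile genes and for markers of endothelium, stroma, pericytes and epithelium (number of genes in brackets). The contractile genes and the endothelial and stromal markers are lowest in saline-2 or Day 8-1 and highest in Day 8-2 or Day 8-3, whereas the epithelial markers are lowest in Day 8-2.

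The difference between the saline-treated libraries tended to be larger in long transcripts, although short members differed as well. Saline replicate 1 exceeded replicate 2 by a median of 0.71 (log2) over the members, 28 of which were positive. The 11 members with a longest transcript of at least 5000 bases had a median of 1.19, and the 24 shorter ones 0.49. Over all 13116 genes with a length, the medians were 0.28 for long and -0.13 for short transcripts. Spearman's rho between length and this difference was 0.53 across the 35 members and 0.26 across all genes, which share their libraries and are not independent. Ppp1r12b, Flna, Vcl, Pgm5, Myocd, Kcnma1, Cacna1c, Ryr2 and Mustn1, the 9 members highest in saline replicate 1, include 7 of the 11 long transcripts. The share of members highest in that library was close to that of all genes, 25.4% of 14204. Between Day 8 replicates 2 and 1 the members differed by a median of 1.17, with 1.08 for long and 1.19 for short transcripts (rho 0.07). Over all genes with a length, the medians of this difference were 0.17 for long and -0.05 for short transcripts (rho 0.18). Among the 35 members, the separation of Day 8 replicate 1 was thus as large in short transcripts as in long ones. RNA quality values were not among the files used here, and the part of RNA quality in the saline and Day 8 differences was not tested.

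**Figure D5:**
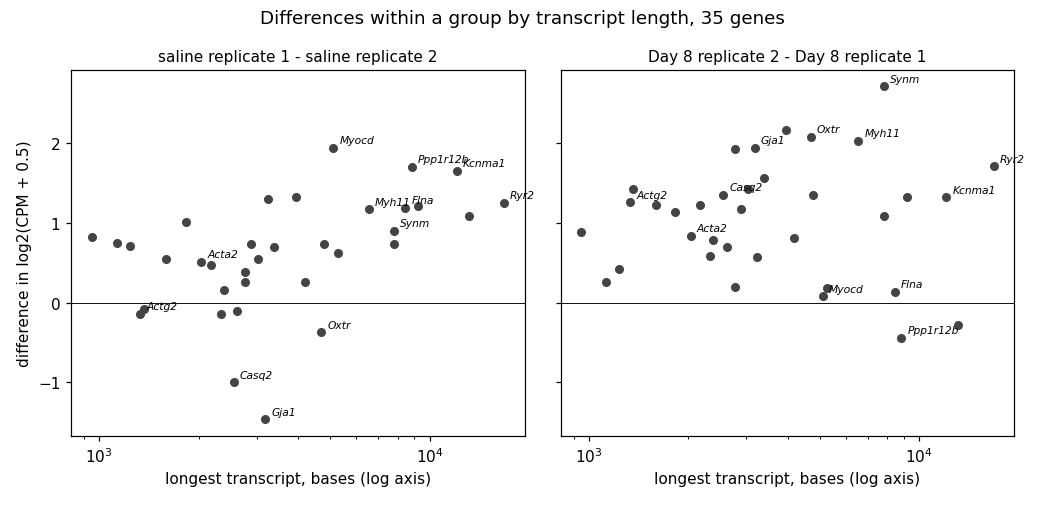
Difference in log2(CPM + 0.5) between 2 libraries of one group against the length of the longest transcript (log axis) for the 35 genes, for the saline-treated libraries (left) and for Day 8 replicates 2 and 1 (right). On the left, long transcripts such as Myocd, Ppp1r12b and Kcnma1 lie highest, and on the right there is no such order with length.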

How the data were processed

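QuantSeq 3′ mRNA libraries of mouse uterus (2 saline, 2 CXCL12 Day 3, 3 CXCL12 Day 8) were used. Alignment by the authors was with Bowtie2, gene coverage of uniquely and multiply aligned reads was taken with Bedtools, and edgeR's quantile method was used for normalization. The submitters' processing notes name mm10 and hg19 without roles, and versions and the strand setting of counting are not given in the sources used here. For 6 libraries the authors deposited raw read counts, and for Day 3 replicate 1 log2 values of normalized counts plus 1. After that transformation was undone and a factor of 1.0545 divided out, 95.7% of 3720 low values lay within 0.1 of a whole number.

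For Day 8 against saline, edgeR 4.0.16 (quasi-likelihood, TMM, filterByExpr, 3 groups) was fitted to the 6 count libraries. Comparisons with Day 3 were made by limma 3.58.1 with a trend on log2(normalized count + 1), quantile-normalized over 7 libraries, with a scaled value of at least 5 in 2 libraries, a scale that understates the change of low genes. Tests ran on all genes, with Benjamini-Hochberg adjustment. Members were counted at a 2-fold change with unadjusted P of 0.05, and at adjusted p of 0.1. The biological coefficient of variation was 42.2% in common over genes. Both tests were tested on simulated data. Totals were 6908790 to 12308982 counts, so a gene at 3 counts has 0.244 to 0.434 CPM, which covers counting error alone.

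All 35 members could be named, and of the further smooth muscle list those past the thresholds, some of which are not reported here. At most the 3 most abundant markers of another cell type were named, apart from markers at 0. The members and lists were chosen with earlier results of these data known. Promoters came from RefSeq, and transcript lengths and shared 50-base words from GENCODE M21. R 4.3.3 and DESeq2 1.42.0 were used. Alternatives were other normalizations, filters and pseudocounts, DESeq2, leaving out each library, a block for the replicate number, fits of only the groups compared, and Day 8 replicate 1 taken as a Day 3 library. Counts of separate groups on the quantile-normalized scale were added after the data were seen.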

Additional observations from a re-analysis of the deposited data

Results flagged for a closer look

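Oxtr was called between the days of CXCL12 treatment, with a log2 fold change of -1.74 ± 0.54 from Day 3 to Day 8 (limma, unadjusted P 0.012, adjusted p 0.695). This contrast is the test of whether its differences from the shared saline-treated libraries were unlike. Those differences were 1.25 at Day 3 by limma and -0.26 at Day 8 by edgeR. They come from unlike fits, so the contrast is not the difference of these values. Oxtr was the 1 member of 35 called between the days (2.86%), against 4.77% of all genes. With Day 8 replicate 1 counted with Day 3, as its table name would have it, the value was -0.28 (limma, unadjusted P 0.73).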

How the results depend on the processing

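At Day 8 against saline, the 3 members called became 1 by limma on quantile-normalized values, 11 with Day 8 replicate 1 counted with Day 3, and 0 to 13 when each library was left out. The median of 0.45 ranged from 0.14 to 0.82 without 1 library. At Day 3 against saline, 3 became 5 by edgeR with estimated counts, 5 with the 2 compared groups alone, and 1 (without Day 3 replicate 2) to 6 (without saline replicate 2 or Day 8 replicate 1), and the median ranged from -0.29 to 0.53. Between the days, 1 became 7 with Day 8 replicate 1 counted with Day 3 and 0 (without Day 3 replicate 2) to 6 (without Day 8 replicate 1), and the median ranged from -0.04 to 0.41. A group left with 1 library was assumed to vary like the others. The causes were not tested. Over all genes, calls at Day 8 went from 453 to 1094 when regrouped and 227 to 1527 without 1 library. Calls at Day 3 went from 737 to 1154 with library size scaling alone (121 higher and 1033 lower, median of all genes -0.27) and 279 to 2911 without 1 library. With estimated counts in edgeR, Day 3 had 162 higher and 600 lower, and Day 8 against Day 3 had 562 higher and 265 lower, against 310 and 427, and 368 and 386, in the limma fit. Calls between the days went from 754 to 1907 when regrouped and 300 to 1764 without 1 library. By DESeq2, 49 genes passed an adjusted p of 0.1 at Day 8, none of them a member. No member passed it in the fits as reported. In the alternatives that left at least 2 libraries in each compared group, members passed only between the days. There were 5 when regrouped (1352 of 15800 genes passed) and 1 without Day 8 replicate 1 (454 of 15675 genes). Of 35 members at Day 8, 5 had an unadjusted P below 0.05 by edgeR.

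Groups share replicate numbers, but no label says that these mark pairs, and they were not taken as pairs. Deviations of same-numbered libraries from their group means had correlations from -0.14 to -0.01. In a group of 2 libraries these deviations mirror each other, so this check is weak and cannot exclude pairs. With the replicate number as a block, 0 members were called at Day 8 against saline (156 genes in all), 2 at Day 3 and 1 between the days (481 genes in all).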
